A study of Bos taurus with 6 samples.

Results

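The genes described here encode the subunits of the proteasome, the protease that degrades ubiquitin-tagged proteins, together with its activators, its inhibitor and its assembly chaperones. The rule for membership uses only gene symbols. A gene belonged to the set if a probe set of the array carried its symbol and no other, and if that symbol began with PSMA to PSMG followed by a digit. This gave 46 probe sets for 40 of the 6337 genes that could be named in the deposited table. That table held 12763 probe sets, with 0 control probe sets among them. Whether it covers the whole array was not checked, so a gene missing here may still be on the array. Where a gene had several, its brightest probe set by mean over the 6 arrays stood for it. One of the 40, PSME3IP1, meets the rule by its name but encodes a protein that interacts with the activator subunit PSME3, and it is given apart. RNA came from blood of Sanhe heifers, labelled as white blood cells, and was hybridised to an Affymetrix bovine array with a single biotin label. The 3 arrays after cold (after 1, after 2 and after 3) followed an exposure outdoors at -32 °C for 3 hours and then 15 hours in a cowshed at 5 °C. The time of the later blood draw within this sequence is not stated. The 3 arrays before cold (before 4, before 5 and before 6) came from the same 3 animals, drawn at random from 30. All animals were female, semi-housed in one cowshed and fed a total mixed ration. The labels do not say which arrays share an animal, so the p-values treat the 6 arrays as separate.

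The proteasome core is a barrel of stacked rings. The outer alpha rings gate the entrance, and the inner beta rings carry the proteolytic sites, on PSMB5 (chymotrypsin-like), PSMB6 (caspase-like) and PSMB7 (trypsin-like). A regulatory particle caps the barrel, with a base of ATPases that unfold the substrate and a lid that removes ubiquitin. In leukocytes, and in other cells under interferon gamma, PSMB8, PSMB9 and PSMB10 replace PSMB5, PSMB6 and PSMB7 to form the immunoproteasome, which generates peptides for MHC class I molecules.

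Values are log2 of the deposited probe set intensities, and a difference is after minus before cold, so that 1 log2 unit is a 2-fold difference. The array medians lay between 7.25 and 7.49 after cold and between 7.36 and 7.44 before cold. Some arrays stood apart across the groups. Over the 12717 probe sets that belong to no proteasome gene, 68.4% of the variance lay on a first principal component on which after 1, 2 and 3 scored -23.3, 52.0 and -63.2, and before 4, 5 and 6 scored -1.3, -16.3 and 52.0. The after 2 and before 6 arrays, which belong to different groups, correlated at 0.995 over all probe sets. The median absolute difference between them was 0.05 over the 40 proteasome genes, and the largest was 0.19. Between after 2 and after 3, of a single group, that median was 0.44, and 6 of the 40 genes differed by over 2-fold. For the genes and roles whose values moved most, differences are also given with one of these arrays left out.

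None of the proteasome genes differed past the threshold between the arrays after cold and those before. In the limma fit, 0 of 40 passed an adjusted p of 0.05, against 0% of 12763 probe sets, and at an unadjusted p under 0.05 there were 0 of 40, against 0.537% of named genes. The mean was higher after cold in 15 of 40 genes and lower in 25, while 56.3% of all named genes had a higher mean. The median difference was -0.04 over the proteasome genes and 0.05 over all named genes. The count of 15 was 10 without before 6 and 21 without after 2 or without before 4, and the median took the opposite sign in the last 2 of these settings (0.04 and 0.02). Median centring and cyclic loess normalization each gave 20 of 40; the 5 genes that turned under centring, PSMB2, PSMC1, PSMC3, PSMD9 and PSME2, lay within 0.03 of 0. In size the differences were small, with a median absolute value of 0.14 against 0.19 over all named genes. The SD over the 6 arrays had a median of 0.30 for proteasome genes and of 0.38 for all named genes.

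Differences ran from -0.83 ± 0.41 (SE) for PSMC2 to 0.30 ± 0.31 for PSMB5. The 95% intervals of all 40 genes included 0, and those of 31 lay within 1 log2 unit of 0 on both sides. The exceptions were PSMA1, PSMA6, PSMB5, PSMC2, PSMD10, PSMD13, PSMD14, PSME4 and PSMG1. These intervals are not adjusted for the number of genes. The groups did not overlap in 2 genes, PSMC2 and PSMA6, both lower after cold. Over all named genes 3% had non-overlapping groups with lower values after cold, and 2.02% with higher values. A difference of at least 1.5-fold was seen in 2 genes, PSMC2 and PSMD14, both lower after cold, against 6.82% of named genes in that direction. In the other direction there were 0, against 0.142%.

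**Figure D1:**
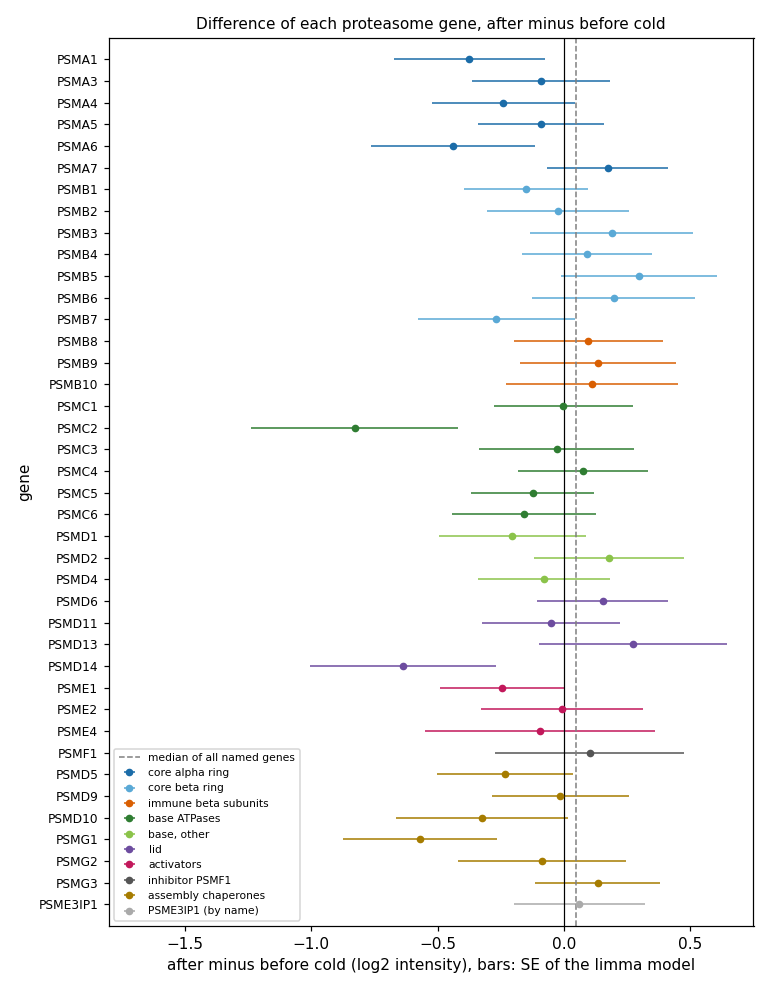
Difference between arrays after and before cold for each of the 40 proteasome genes (x axis: log2 intensity, after minus before; points: difference of group means, n = 3 each; bars: SE of the limma model; dashed line: median of all named genes, 0.05), coloured by role in the complex. Most points lie within 0.3 of 0, and PSMC2, PSMD14 and PSMG1 lie farthest to the left at -0.83, -0.64 and -0.57.

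Genes of the alpha ring, which forms the gate of the core, had mostly lower means after cold. Of 6 measured members 1 was higher and 5 were lower, with a median of -0.17, or -0.35 without after 1 and -0.07 without before 5, and none passed the test. PSMA6, an alpha subunit, was at 11.73, 11.77 and 10.80 on after 1, 2 and 3 and at 11.81, 12.04 and 11.77 on before 4, 5 and 6. Its groups were separated only by the narrow step between after 2 (11.767) and before 6 (11.770), and after 3 stood about 1 log2 unit below the rest. The difference was -0.44 ± 0.32 (SE), -0.12 without after 3 and -0.61 without after 2. PSMA1, another alpha subunit, was at 9.74, 9.49 and 9.04 after cold and at 9.61, 10.16 and 9.62 before. Here after 3 was the lowest and before 5 the highest array, and the groups overlapped. The difference was -0.37 ± 0.30, -0.18 without after 3 and -0.53 without after 1. PSMA7 was the member with a higher mean, at 0.17 ± 0.24. PSMA3, PSMA4 and PSMA5 differed by -0.09, -0.24 and -0.09.

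Genes of the constitutive beta ring were split. Of 7 measured members 4 were higher and 3 lower after cold, with a median of 0.09, and none passed. PSMB5, the chymotrypsin-like subunit, was at 9.08, 8.68 and 9.57 after cold and at 8.94, 8.95 and 8.54 before. After 3 was the highest array, and before 6 and after 2 were the lowest. The difference was 0.30 ± 0.31 (SE), 0.07 without after 3 and 0.51 without after 2. PSMB6, the caspase-like subunit, was at 10.79, 10.04 and 10.77 after cold and at 10.30, 10.71 and 10.01 before. Each group held high arrays and 1 low array, after 2 or before 6. The difference was 0.20 ± 0.32, 0.03 without before 6 and 0.44 without after 2. PSMB7, the trypsin-like subunit, was at 10.21, 9.76 and 9.34 after cold and at 10.10, 10.29 and 9.72 before. Unlike PSMB5 and PSMB6, it was lowest on after 3. Its difference of -0.27 ± 0.31 was -0.05 without that array and -0.49 without after 1. The structural subunits PSMB3 and PSMB4 differed by 0.19 and 0.09, and PSMB1 and PSMB2 by -0.15 and -0.02.

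The immune beta subunits had slightly higher means after cold in all 3 measured genes, with overlapping groups and a median of 0.11. PSMB8 was at 11.95, 11.75 and 12.40 after cold and at 11.88, 12.28 and 11.65 before. PSMB9 was at 11.66, 11.21 and 12.08 after cold and at 11.53, 11.77 and 11.24 before. PSMB10 was at 10.14, 9.46 and 10.30 after cold and at 10.03, 10.18 and 9.37 before. In each of the 3 genes after 3 was the highest array and after 2 and before 6 were the lowest, so that the spread within a group exceeded the step between groups. The differences were 0.10 ± 0.30 (SE) for PSMB8, 0.14 ± 0.31 for PSMB9 and 0.11 ± 0.34 for PSMB10. Without after 3 all 3 took the opposite sign (-0.09, -0.08 and -0.06), and so they did without before 6 (-0.05, -0.0019 and -0.14). Without after 2 the differences were 0.24, 0.36 and 0.36. The 95% interval of PSMB8 reached from -0.58 to 0.78, that of PSMB9 from -0.57 to 0.84 and that of PSMB10 from -0.67 to 0.89.

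**Figure D2:**
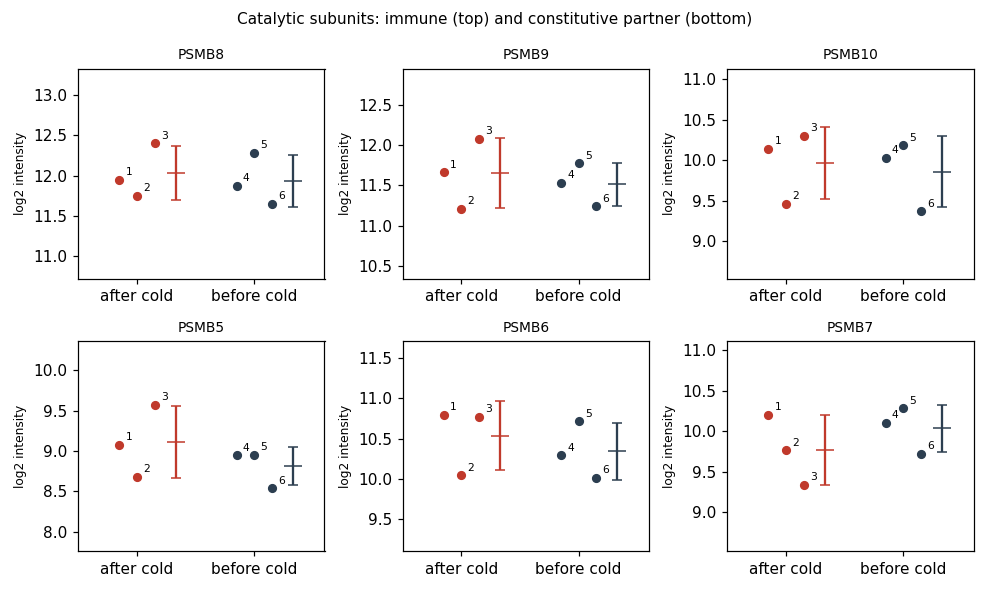
Log2 intensity on each array of the immune subunits PSMB8, PSMB9 and PSMB10 (top) and of the constitutive subunits PSMB5, PSMB6 and PSMB7 that they replace (bottom). Points are single arrays with their number, and bars are the mean and SD of 3 arrays, and the y axes span equal ranges. In 5 of the 6 genes after 2 and before 6 are the lowest arrays, and PSMB7 is lowest on after 3.

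To ask whether the immune subunits shifted relative to the subunits they replace, the log2 difference within each pair was compared between groups. For PSMB8 minus PSMB5, the values relative to the mean of the 6 arrays were -0.15, 0.05 and -0.20 on after 1, 2 and 3 and -0.09, 0.31 and 0.09 on before 4, 5 and 6. The shift was -0.20 (exact permutation test, two-sided, p = 0.2, adjusted p = 0.6 over 3 pairs). For PSMB9 minus PSMB6 they were -0.28, 0.02 and 0.16 after cold and 0.09, -0.09 and 0.08 before, a shift of -0.06 (exact p = 0.8, adjusted p = 0.8). For PSMB10 minus PSMB7 they were -0.07, -0.31 and 0.95 after cold and -0.09, -0.11 and -0.37 before. That shift of 0.38 (exact p = 0.4, adjusted p = 0.6) rested on after 3, without which it was -0.0038. Without after 2 it was 0.63. The groups overlapped in all 3 pairs, and 3 arrays against 3 cannot give an exact p below 0.1.

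Among the ATPases of the base, PSMC2 had the widest separation of all proteasome genes, while its partners in the ring lay near 0. Of 6 measured members 1 was higher and 5 were lower after cold, with a median of -0.08 that was 0.04 without after 2. PSMC2 was at 9.24, 9.43 and 7.92 on after 1, 2 and 3 and at 9.79, 9.81 and 9.48 on before 4, 5 and 6. All 3 arrays after cold were below the 3 before, after 2 by a narrow margin and after 3 by over 1.5 log2 units. The difference was -0.83 ± 0.41 (SE; limma, unadjusted p = 0.0767, adjusted p = 1), -0.36 without after 3 and -1.11 without after 2. A second PSMC2 probe set was at 8.93, 9.20 and 8.02 after cold and at 9.43, 9.79 and 9.31 before, with a difference of -0.79 ± 0.35. Its groups did not overlap either, and it correlated at 0.974 with the brighter set over the 6 arrays. Both sets were read on the same arrays, so the second is not an independent measurement of the animals. It also carries the array's suffix for probes that match several transcripts. PSMC6 was at 9.0, 8.52 and 8.19 after cold and 8.68, 8.85 and 8.66 before. It differed by -0.16 ± 0.29, by 0.03 without after 3 and by -0.37 without after 1. PSMC1, PSMC3, PSMC4 and PSMC5 differed by -0.0026, -0.03, 0.08 and -0.12.

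Of the other subunits of the base, 1 of 3 measured was higher after cold. Their median of -0.08 took the opposite sign without after 2 (0.0051) and without before 4 (0.03). PSMD1, a scaffold of the base, was at 7.78, 8.44 and 7.76 after cold and at 7.97, 8.22 and 8.41 before, a difference of -0.20 ± 0.29 (SE), or -0.43 without after 2 and -0.09 without after 3. PSMD2, the other scaffold, was at 9.03, 8.39 and 9.01 after cold and at 8.89, 8.70 and 8.31 before, a difference of 0.18 ± 0.30, or 0.38 without after 2 and 0.02 without before 6. These genes ran against each other across arrays (Pearson r = -0.97 over 6 arrays), with PSMD1 high and PSMD2 low on after 2 and before 6. With the first principal component they correlated at 0.89 and -0.91, and 13.7% of all pairs of named genes lay below -0.8. PSMD4, a ubiquitin receptor, differed by -0.08 ± 0.26.

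In the lid, 2 of 4 measured genes were higher and 2 lower after cold. Their median of 0.05 took the opposite sign without after 3 (-0.07), without after 2 (-0.03) and without before 5 (-0.01). PSMD14, the deubiquitinase that cuts ubiquitin chains from the substrate, was at 8.70, 9.37 and 7.99 after cold and at 9.13, 9.51 and 9.35 before. After 1 and after 3 were below all arrays before cold, and after 2 lay among them. The difference was -0.64 ± 0.37 (SE; limma, unadjusted p = 0.122, adjusted p = 1), -0.29 without after 3 and -0.98 without after 2. PSMD13, a structural lid subunit, was at 8.81, 7.92 and 9.10 after cold and at 8.64, 8.48 and 7.89 before. Its difference was 0.27 ± 0.37, 0.03 without after 3 and 0.62 without after 2. PSMD6 and PSMD11 differed by 0.15 ± 0.26 and -0.05 ± 0.27. A second PSMD6 probe set was much dimmer, between 4.65 and 6.42 over the 6 arrays, and differed by 0.32 ± 0.49.

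All 3 measured activator genes had lower means after cold, none past the test, and their median of -0.09 was 0.08 without after 3. PSME1 and PSME2 encode the subunits of the interferon-induced activator PA28. PSME1 was at 11.43, 11.35 and 11.20 after cold and at 11.63, 11.71 and 11.37 before. Its groups overlapped only through after 1 and before 6, and the difference was -0.24 ± 0.25 (SE). PSME2 was at 11.20, 10.37 and 10.51 after cold and at 10.88, 10.90 and 10.32 before, a difference of -0.0091 ± 0.32 whose sign changed with the normalization. PSME4, the activator PA200, was at 6.86, 8.03 and 6.59 after cold and at 6.96, 6.86 and 7.94 before. It stood about 1 log2 unit higher on after 2 and before 6 than on the other 4 arrays, and its difference was -0.09 ± 0.45, or -0.53 without after 2 and 0.25 without before 6. PSMF1, a proteasome inhibitor, showed the opposite order, with 9.13, 8.17 and 9.30 after cold and 8.98, 9.03 and 8.30 before. Its difference was 0.10 ± 0.37, or 0.45 without after 2, and it took the opposite sign without after 1 (-0.03), after 3 (-0.12) or before 6 (-0.13). It correlated with PSME4 at -0.996 over the 6 arrays, the most negative of the 780 pairs of proteasome genes. PSME4 was nearly as opposed to PSMB10 and PSMC1, at -0.99 each. With the first principal component PSMF1 correlated at -0.97 and PSME4 at 0.96. PSME3IP1 was at 8.95, 8.75 and 9.05 after cold and at 9.10, 8.88 and 8.59 before, a difference of 0.06 ± 0.26.

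The assembly chaperones, which help build the rings but are not part of the finished complex, had lower means after cold in 5 of 6 genes, with a median of -0.16 that was -0.01 without after 3 and -0.29 without after 1. PSMG1, which with PSMG2 guides alpha ring assembly, was at 9.05, 9.73 and 8.77 after cold and at 9.72, 9.85 and 9.69 before. The 3 arrays before cold lay within 0.2 log2 units, and after 1 and after 3 were below them. The difference was -0.57 ± 0.31 (SE; limma, unadjusted p = 0.0988, adjusted p = 1), -0.36 without after 3 and -0.84 without after 2. PSMD10, or gankyrin, a chaperone of the base, was at 7.40, 7.72 and 6.57 after cold and at 7.69, 7.34 and 7.63 before. The difference of -0.32 ± 0.34 was 0.0053 without after 3 and -0.57 without after 2. PSMD5 and PSMD9, also chaperones of the base, differed by -0.23 ± 0.27 and -0.01 ± 0.27. PSMG2 and PSMG3 differed by -0.09 ± 0.33 and 0.13 ± 0.25.

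**Figure D3:**
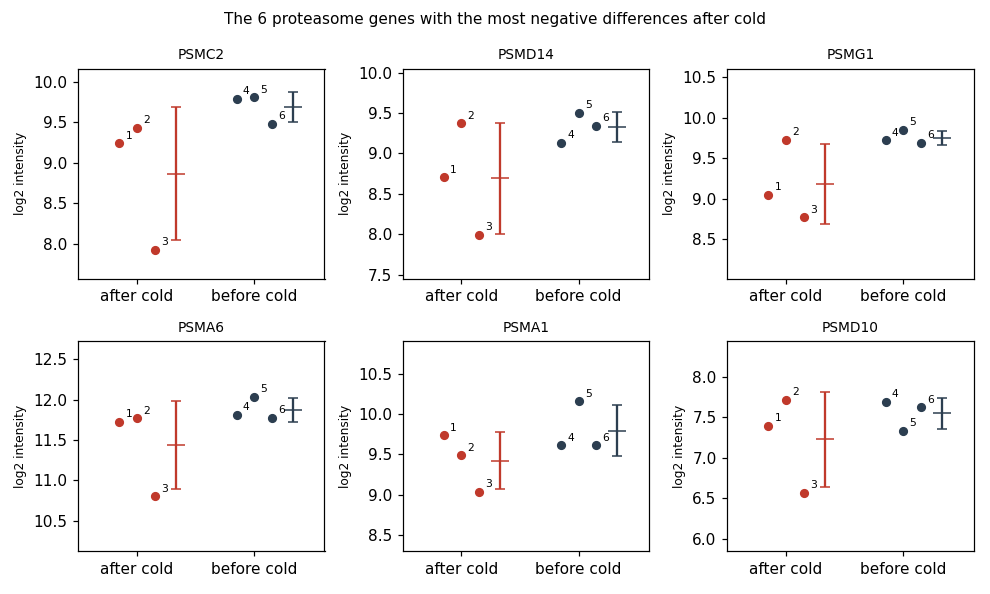
Log2 intensity on each array of the 6 proteasome genes with the most negative differences. Points are single arrays with their number, bars are the mean and SD of 3 arrays, and the y axes span equal ranges. In each gene after 3 is the lowest of the 6 arrays.

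No proteasome gene passed the adjusted threshold in any setting run, and the unadjusted p fell under 0.05 in some settings for PSMC2, PSMD14 and PSMG1. Without after 2 these 3 had unadjusted p-values of 0.0178, 0.0117 and 0.0127 in limma, with adjusted p-values of 0.283, 0.276 and 0.278. In that setting 1787 of 12763 probe sets had an unadjusted p under 0.05, a larger share than 3 of 40. Matching each array after cold with 1 before cold as a pair can be done in 6 ways, and the difference is the same in each. With the matching 1-4, 2-6, 3-5, an unadjusted p under 0.05 was reached by PSMC2 and PSMG1, or 2 of 40 genes, against 8.43% of named genes. With 1-5, 2-6, 3-4 it was reached by PSMC2 and PSMD14, against 5.11%. With the other 4 matchings it was reached by 0 of 40, against 0.158% to 0.521%. The smallest adjusted p of a proteasome gene over the 6 matchings was 0.492.

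The likeness of profiles across arrays varied between roles. The median correlation between pairs of proteasome genes over the 6 arrays was 0.24, against 0.0038 for all pairs of named genes. Pairs above 0.8 made up 17.2% of the proteasome pairs and 16.0% of all pairs, and pairs below -0.8 made up 6.79% and 13.7%. These correlations share the same 6 libraries and are a description. Within subclasses the median was 0.93 for the 3 immune beta subunits, 0.57 for the base ATPases, 0.53 for the alpha ring and 0.48 for the constitutive beta ring, 0.02 for the assembly chaperones, -0.20 for the lid and for the activators, and -0.62 for the 3 other base subunits. Between constitutive and immune beta subunits it was 0.80.

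In 21 of 40 proteasome genes after 2 and before 6 were the lowest arrays, which held for 36.9% of all named genes. They included all 3 immune beta subunits, 5 of 7 constitutive beta subunits and 4 of 6 base ATPases, but 1 of 6 alpha subunits. In 4 genes, PSME4, PSMD1, PSMD5 and PSMD6, these arrays were the highest, against 25.5% of named genes. Against the first principal component, which was computed without the proteasome genes, 14 of 40 had a correlation below -0.8 and 4 above 0.8, while over all named genes these shares were 33% and 22.1%. Those above 0.8 were PSME4 (0.96), PSMD5 (0.96), PSMD1 (0.89) and PSMD10 (0.84). Among those below were PSMB9 (-0.98), PSMD13 (-0.97), PSMF1 (-0.97), PSMB10 (-0.96) and PSMB5 (-0.96). After 3 was the lowest array in 15 of 40 genes and the highest in 10, against 32.5% and 36.4% of named genes. What sets these arrays apart was not tested.

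**Figure D4:**
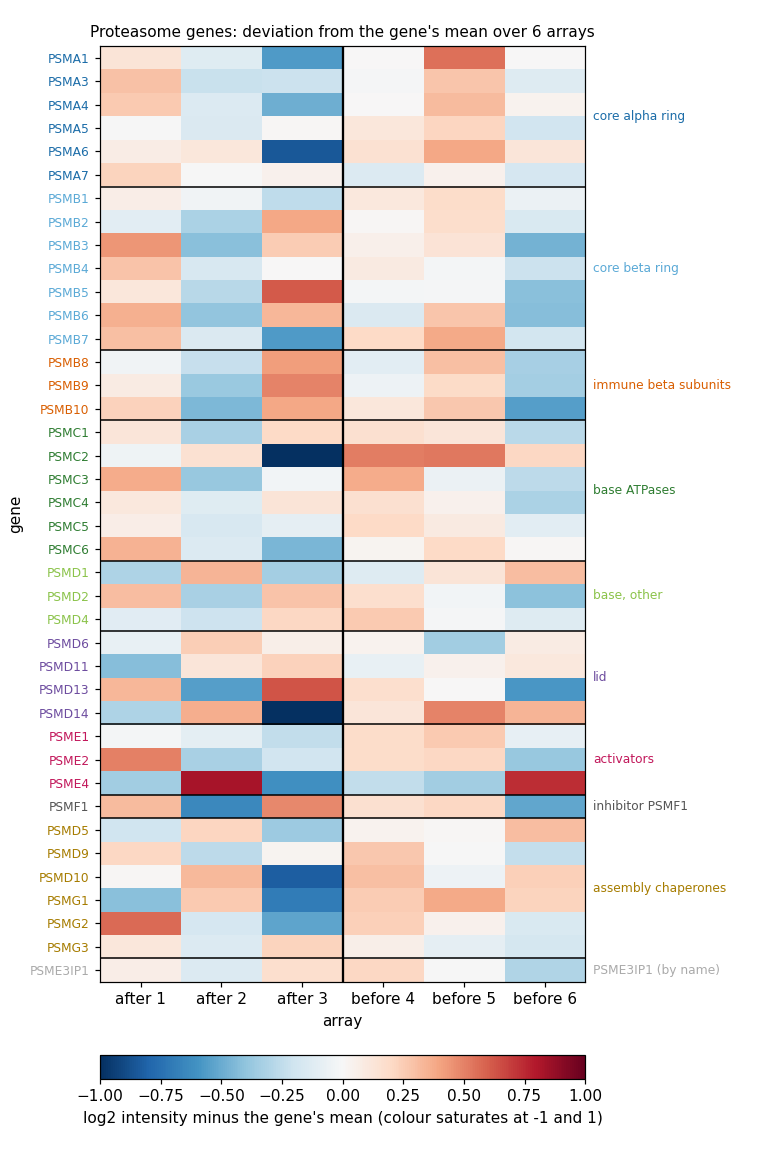
Deviation of each proteasome gene from its own mean over the 6 arrays (colour, log2 units), with genes in rows grouped by role and arrays in columns, after cold to the left of the line and before cold to the right. The after 2 and before 6 columns look alike, the immune beta subunits are low on both and high on after 3, and PSMC2 and PSMD14 are lowest on after 3.

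Where a gene had a second probe set, the dimmer one mostly followed the brighter one. Over 6 genes the correlation across arrays was 0.59 for PSMD6 and between 0.81 and 0.97 for PSMB2, PSMC2, PSMC5, PSMC6 and PSMD4. The signs of the differences disagreed for PSMB2 (-0.02 for the brighter and 0.02 for the dimmer set) and for PSMD4 (-0.08 and 0.02). A second PSMC5 set, at 6.26, 6.14 and 6.23 after cold and 6.38, 6.29 and 6.29 before, had non-overlapping groups and a difference of -0.11 ± 0.23 (SE). The brighter set of PSMB2 and the dimmer sets of PSMC2 and PSMD4 carry the array's suffix for probes that match several transcripts, so their values are less certain.

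Genes that work with the proteasome but carry other names showed no difference past the threshold either. Of 10 measured proteasome-associated factors 5 were higher and 5 lower after cold, with a median of -0.03. UBE3C, a ubiquitin ligase that binds the proteasome, was at 5.31, 5.14 and 5.44 after cold and at 5.02, 4.87 and 4.97 before, a difference of 0.34 ± 0.24 (SE). It was dim, well below the array medians of 7.25 to 7.49, and no detection call was made. AKIRIN2, which brings proteasomes into the nucleus, was at 10.43, 10.46 and 10.67 after cold and at 10.27, 10.12 and 10.37 before, a difference of 0.27 ± 0.24. The groups did not overlap in these 2 genes, which were named for that, and 2.02% of all named genes had such groups with higher values after cold. The proteasome-bound deubiquitinases UCHL5 and USP14, picked after their values were seen, differed by -0.24 ± 0.35 and -0.35 ± 0.38. POMP, the maturation factor of the core, differed by 0.0020 ± 0.26. Of 10 measured genes of substrate delivery and proteasome gene control 8 were higher, with a median of 0.08, while 56.3% of all named genes were higher. NFE2L1, a transcription factor that raises proteasome genes when the protease is impaired, differed by 0.08 ± 0.26. NFE2L2, its relative in the antioxidant response, was at 7.94, 9.11 and 8.28 after cold and at 8.49, 9.02 and 9.15 before, a difference of -0.45 ± 0.36.

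A list of MHC class I loading and interferon-related genes had 6 of 9 measured members higher and a median of 0.11. Over all named genes 56.3% were higher, with a median of 0.05. The 6 included IFI30 (0.18), which is not a class I loading gene. In the cattle gene table TAP1, a subunit of the peptide transporter, lies between PSMB8 and PSMB9 with 0 protein-coding genes between. TAP1 was at 10.81, 10.70 and 11.35 after cold and at 10.75, 11.08 and 10.64 before, a difference of 0.13 ± 0.28 (SE). After 3 was its highest array, as in PSMB8 and PSMB9, and after 2 and before 6 were the lowest. TAP2, the other transporter subunit, was at 11.11, 11.34 and 11.71 after cold and at 10.91, 11.37 and 11.32 before, a difference of 0.19 ± 0.28.

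Leukocyte markers were bright on all arrays, with PTPRC, CORO1A, LCP1 and LAPTM5 summing to intensities of 17882 to 19700 after cold and 16339 to 19702 before. Other markers gave signal too and shifted between arrays, and fewer cells of a type cannot be told apart from less RNA per cell in such mixed samples. Summed over the measured markers, intensities after and before cold were 7839 to 11203 and 8387 to 13085 for T cells (1 of 5 higher after cold), 4483 to 5384 and 4787 to 5574 for B cells (2 of 3), and 952 to 1774 and 905 to 1839 for monocytes (1 of 3). They were 18562 to 24674 and 15918 to 24276 for neutrophils (3 of 3), 1976 to 4710 and 1781 to 3854 for NK and cytotoxic cells (5 of 5), and 616 to 1102 and 824 to 1272 for eosinophils and basophils (0 of 3). The neutrophil sum held only S100A8, S100A9 and S100A12, which are not exclusive to neutrophils. CSF3R and CXCR2 had no named probe set in the deposited table. Over all named genes 56.3% were higher after cold. Red cell markers summed to 4287 to 5046 after cold and 3817 to 4990 before (2 of 2), and the 1 measured platelet gene, PF4, to 5480 to 6388 and 5762 to 7043 (0 of 1). The smallest intensity of a marker was 33, in the NK and cytotoxic list, and no detection call was made. The ranges overlapped in every list of cell markers, and the part of cell composition in the values of the proteasome genes was not tested.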

How the data were processed

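RNA from blood of heifers after and before cold (3 arrays each) was measured on a bovine Affymetrix array. The authors deposited 1 intensity per probe set and array on a linear scale, made with GCOS and RMA, per the submitters' processing notes. Versions and genome build: not given in the sources used here. Here log2 of the deposited intensities was taken with no further normalization or filter. Then limma 3.58.1 in R 4.3.3 (lmFit and eBayes, two-sided) was fitted to all 12763 deposited probe sets of the 6 arrays without a block. P-values were adjusted over all of them by Benjamini-Hochberg, with a threshold of 0.05.

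Probe sets were named from the platform annotation: 8125 had 1 symbol, 56 several and 4582 none. Named genes are the 6337 with a single symbol, each by its brightest probe set. Apart from the median brightness of the set, levels of probe sets of different genes were not compared. The within-pair differences of 3 immune and constitutive subunits were tested by exact permutation. Correlations over arrays are descriptions. The limma p-values set the difference of group means against the spread between arrays within groups. That spread includes differences between animals, since arrays of the same animal could not be paired. The number of arrays limits the precision.

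Values on every array are given for 21 genes, namely the catalytic and immune beta subunits, PSME1, PSME2, genes with non-overlapping groups, and the 2 of each role with the smallest unadjusted p. The members, roles and lists were chosen with earlier results of these data known. PSMA2, PSMA8, PSMB11, PSMD3, PSMD7, PSMD8, PSMD12, PSME3 and PSMG4 were not analysed here, nor were promoter motifs. Neighbouring genes come from the RefSeq cattle gene table.

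The fit was tested on simulated data with each probe set's own spread within groups. The simulated noise was independent between probe sets, without the component that the real arrays share across genes. The shares below therefore hold for such independent noise and do not give the recovery on these arrays. Simulated log2 changes of 1 were recovered in 4.48% of 67 probe sets. For changes of 2 the share was 55.2% of 67, and for changes of 3 it was 81.8% of 66. Of 96 calls in the simulated data 2 were false. Alternatives were filters on dim probe sets, variance models, array weights, 3 normalizations, the mean of a gene's probe sets, leaving out arrays, and a block for each of the 6 matchings.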

Additional observations from a re-analysis of the deposited data

How the results depend on the processing

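In limma, 0 proteasome genes and 0 probe sets passed the adjusted threshold under every alternative run. Of 461 values of single genes under the alternatives, 29 took the opposite sign, and 10 of 21 genes with values on every array kept their sign throughout. The number of probe sets at an unadjusted p under 0.05 was 63, and it was 27 without the dimmest 50%, 109 with median centring, 100 with quantile normalization, 102 with cyclic loess and 662 with array weights. It was 5 to 1787 when 1 array was left out, and 1234 without after 2 and before 6 together, an alternative chosen after seeing the data. With a replicate block for an assumed pairing it was 33 (1-4, 2-5, 3-6), 1168 (1-4, 2-6, 3-5), 24 (1-5, 2-4, 3-6) and 656 (1-5, 2-6, 3-4). For the remaining pairings it was 70 (1-6, 2-4, 3-5) and 46 (1-6, 2-5, 3-4). Proteasome genes at that threshold numbered 0, and 1 with array weights (PSMC2), 3 without after 2 and before 6, 2 with each of the blocks 1-4, 2-6, 3-5 and 1-5, 2-6, 3-4, and 0 to 3 when 1 array was left out. The 3 without after 2 and before 6 were PSMC2 (-1.22), PSMD14 (-0.97) and PSMG1 (-0.87), with adjusted p-values of 0.503, 0.492 and 0.492. Genes with non-overlapping groups numbered 2, and 1 with quantile normalization, 19 without after 2 and before 6, and 2 to 15 when 1 array was left out. Over all 6337 named genes there were 318, and 344 with quantile normalization and 3033 without after 2 and before 6. When 1 array was left out there were 420 to 2712. Leaving out an array can only add genes to this count, but the rise differed with the array, to 420 without after 3 and 2712 without after 2. With 1 array left out, the median of the activators ranged from -0.26 to 0.083. The differences ranged from -0.14 to 0.36 for PSMB10, -0.086 to 0.27 for PSMB8, -0.079 to 0.36 for PSMB9, -0.37 to 0.029 for PSMC6, -0.57 to 0.0053 for PSMD10, -0.26 to 0.15 for PSME2, -0.073 to 0.18 for PSME3IP1, -0.53 to 0.25 for PSME4 and -0.13 to 0.45 for PSMF1. The pairs ranged from -0.16 to 0.063 for PSMB9 minus PSMB6 and from -0.0038 to 0.63 for PSMB10 minus PSMB7. PSME2 was at 0.025 with median centring, 0.0096 with quantile normalization and 0.033 with cyclic loess. The estimate of array weights did not converge and was very uneven, at 0.0019 for after 1 and 30.7 for before 4. With these weights, which make the values of that setting unreliable, the medians were -0.37 for activators, -0.44 for assembly chaperones and -0.33 for base ATPases, and the opposite sign was taken by PSMB10 (-0.026), PSMD1 (0.0049), PSMD2 (-0.067), PSME3IP1 (-0.11), PSME4 (0.14), PSMF1 (-0.080) and PSMB9 minus PSMB6 (0.034). The cause of these shifts between settings was not tested.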
